A study of Rattus norvegicus with 6 samples.

Results

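Albumin (Alb), alpha-fetoprotein (Afp) and the hepatocyte transcription factors Hnf4a and Cebpa were followed in liver RNA of Fischer-344 rats, all male and of an inbred line. The 4 genes were taken by their Ensembl gene IDs, ENSRNOG00000002911 for Alb, ENSRNOG00000002889 for Afp, ENSRNOG00000008895 for Hnf4a and ENSRNOG00000010918 for Cebpa, out of 43360 IDs in the count tables. All 4 were present in every table and all 4 passed the filter on low counts, as did 16898 IDs in all. The tables carry IDs without symbols and 0 of the 43360 IDs could be paired with a symbol through the reference used here, so the 4 names are those that came with the ID list.

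The design lists 18 rats treated over 16 weeks. HCC/NAC rats received diethylnitrosamine (DEN), a liver carcinogen that alkylates DNA, at 50 mg/kg by weekly intraperitoneal injection, then oral 2-acetylaminofluorene (2-AAF), an aromatic amine carcinogen, at 25 mg/kg, and in addition daily oral N-acetylcysteine (NAC), which supplies cysteine for glutathione, at 300 mg/kg. HCC rats received the same DEN and 2-AAF without NAC, a schedule used to induce hepatocellular carcinoma (HCC), and control rats received oral carboxymethyl cellulose. Each group had 2 poly(A) RNA libraries, for which RNA of 5 animals was pooled, so no value belongs to 1 animal. The labels do not say whether the 2 libraries of a group held different animals, so p-values here measure the spread between libraries, possibly only a technical one. The labels do not give the age of the animals or separate tumour from surrounding tissue. The labels' protocol calls the pooled animals mice, although organism and design are given as rat. Libraries held 33917707 to 37717373 counts. They differed at the lowest counts: IDs with 1 to 5 counts numbered 632 and 708 in the HCC/NAC, 2847 and 3364 in the HCC and 336 and 3271 in the control libraries (replicates 1 and 2). The 4 genes had at least 567 counts in every library. Leaving out either control replicate reversed none of the 12 fold changes. Those of HCC/NAC against HCC hold no control library, so for them this is no check. In that comparison the difference at the lowest counts goes with the groups and cannot be told apart from NAC. For Afp, the log2 fold change of HCC against control was 3.12 without control replicate 1 and 3.44 without control replicate 2. For Alb these values were -0.96 and -0.85. The control libraries carry another prefix in their deposited names than the other 4, and if it marks a batch, batch and carcinogens cannot be told apart.

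Albumin is the most abundant protein of blood plasma and is made by hepatocytes. Alpha-fetoprotein is its relative from the same gene family, the main plasma protein of the fetus, whose gene is largely shut down in the liver after birth and is expressed again in regenerating liver and in many hepatocellular carcinomas, where the protein serves as a serum marker. Hnf4a encodes a nuclear receptor and Cebpa a leucine zipper protein, and both factors act at many genes that distinguish adult hepatocytes, among them plasma protein genes such as Alb.

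Alb and Afp lie next to each other in the RefSeq rat gene table (GRCr8), with the related gene Afm on the far side of Afp and no other protein-coding gene between Alb and Afp. The bases before their starts are shown because these neighbours moved in opposite directions in HCC livers, and those of Hnf4a because RefSeq lists more than 1 start for it. RefSeq promoter windows were found for 4 of 4 genes, with 2 windows for Hnf4a. For Alb, Afp and Hnf4a, the 250 bases before each RefSeq start are printed 5′ to 3′ in the direction of the gene. Capitals mark TATAAA (a form of the TATA box), CCAAT and GTTAAT, searched on both strands. Only these exact letters were searched, so a window without a match may still hold a variant of the element. GTTAAT is the half-site of the motif bound by the HNF1 factors of the liver, and it was chosen after these windows had been read.
Alb, GRCr8 chr14:17906980-17907229, minus strand: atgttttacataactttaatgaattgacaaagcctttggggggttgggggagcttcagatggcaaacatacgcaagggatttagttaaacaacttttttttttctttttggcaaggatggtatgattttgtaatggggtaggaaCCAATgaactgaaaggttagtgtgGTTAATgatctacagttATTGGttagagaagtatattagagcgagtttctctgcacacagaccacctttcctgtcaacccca
Afp, GRCr8 chr14:17875646-17875895, minus strand: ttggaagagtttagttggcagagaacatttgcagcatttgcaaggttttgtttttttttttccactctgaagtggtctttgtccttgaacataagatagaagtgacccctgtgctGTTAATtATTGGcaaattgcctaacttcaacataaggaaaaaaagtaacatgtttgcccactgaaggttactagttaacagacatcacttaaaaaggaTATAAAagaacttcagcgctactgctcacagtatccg
Hnf4a upstream start, GRCr8 chr3:172605970-172606219, plus strand: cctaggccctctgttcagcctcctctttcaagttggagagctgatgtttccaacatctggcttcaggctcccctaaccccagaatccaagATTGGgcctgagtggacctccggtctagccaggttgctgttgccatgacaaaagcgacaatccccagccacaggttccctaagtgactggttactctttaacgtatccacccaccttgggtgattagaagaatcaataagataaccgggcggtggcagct
Hnf4a downstream start, GRCr8 chr3:172641586-172641835, plus strand: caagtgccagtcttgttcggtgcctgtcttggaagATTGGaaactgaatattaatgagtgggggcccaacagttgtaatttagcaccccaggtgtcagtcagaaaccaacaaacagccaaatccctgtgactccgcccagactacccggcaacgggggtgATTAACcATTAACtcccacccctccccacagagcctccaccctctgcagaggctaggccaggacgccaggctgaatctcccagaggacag
GTTAAT began at position -82 of the Alb window and -135 of the Afp window, and stood on the other strand at -90 and -83 of the downstream Hnf4a window, with -1 the last base before the start. It was present in 7.45% of 33469 RefSeq rat promoter windows searched over 250 bases before and 50 bases after the start, and was not found in the upstream Hnf4a window. Afp had TATAAA at -37, which Alb and both Hnf4a windows lacked and which 14.2% of all windows held. CCAAT was found on either strand in the windows of Alb, at -106 and -65, of Afp, at -128, and of Hnf4a, at -160 and -215, beside 37.5% of all windows. In the Cebpa window TATAAA was found at -35, and neither other pattern was found. These matches are letters in a window and say nothing of whether a factor was bound in these livers.

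Against control livers, Afp rose in HCC livers while Alb, Hnf4a and Cebpa each fell to close to the same fraction of their control level. With NAC, Afp lay far below its HCC level, Alb and Cebpa lay between their HCC and control levels, and Hnf4a lay below both. The distance of Alb and Cebpa from HCC depended on the scaling of libraries. Their log2 fold changes of HCC/NAC against HCC were 0.43 and 0.51 as reported, and 0.06 and 0.14 with library totals alone. All 4 genes passed an adjusted p of 0.05 in each of the 3 comparisons (edgeR quasi-likelihood test, Benjamini-Hochberg adjustment over all 16898 tested IDs). That threshold was also passed by 34.8% of tested IDs in HCC against control, 46.2% in HCC/NAC against control and 27.7% in HCC/NAC against HCC. Among the 7485 IDs with a mean of at least 10 CPM (counts in 1000000 counts of the scaled library), the abundance class of all 4 genes, the shares were 54%, 67.5% and 48.7%. The median log2 fold change over the 4 genes was -0.95 for HCC against control, beside 0.05 over all tested IDs. For HCC/NAC against control the medians were -0.49 and 0.05, and for HCC/NAC against HCC they were -0.08 and -0.05. In HCC/NAC against HCC 2 of the 4 genes were higher and 2 lower, so their median describes none of them.

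**Figure D1:**
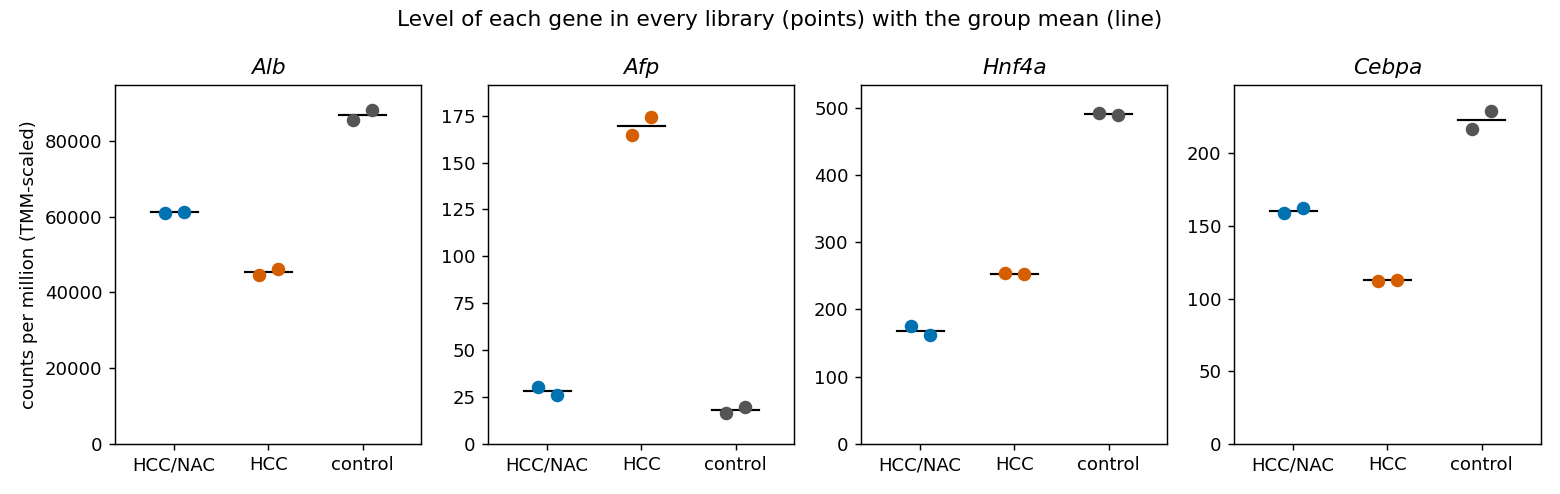
CPM (TMM-scaled, linear axes from 0) of Alb, Afp, Hnf4a and Cebpa in each library, with points for the 2 libraries of a group and a line at their mean. Afp is high in HCC livers, at 165 and 174 CPM, whereas the other 3 genes are highest in control livers and Hnf4a is lowest in HCC/NAC livers.

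Alb was the most abundant ID in both control libraries and the second most abundant in the other 4, which fits the tissue label. Its counts were 2027200 and 1995120 in the HCC/NAC libraries, 2015112 and 1848939 in the HCC libraries and 2955506 and 2920796 in the control libraries. These counts made up 5.62% of all counts in each HCC/NAC library, 5.34% and 5.45% in the HCC libraries and 7.87% and 8.06% in the control libraries. The 95% exact binomial interval of such a share was narrow, for example 5.34% to 5.35% in HCC replicate 1, and covers counting error only. As raw shares, both carcinogen groups thus lay below control and close to each other.

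After scaling of libraries by the trimmed mean of M values (TMM), Alb measured 61051 and 61379 CPM in HCC/NAC livers, 44733 and 46147 CPM in HCC livers and 85577 and 88206 CPM in control livers. No group overlapped another in Alb, as held for 72.4% of tested IDs between HCC and control, 70.1% between HCC/NAC and control and 65.9% between HCC/NAC and HCC. In HCC livers Alb fell to 45440 ± 1000 CPM, against 86891 ± 1859 CPM in control livers (SD, n = 2 each), 1.91-fold lower with a 95% interval of 1.86 to 1.96. The log2 fold change was -0.94 ± 0.017 (SE; adjusted p = 1.08e-12, edgeR). In bulk RNA, fewer cells of a type and less RNA per cell cannot be told apart for this fall.

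With NAC, Alb remained 1.42-fold below control (log2 fold change -0.51 ± 0.017, SE; adjusted p = 3.15e-10, edgeR) at 61215 ± 232 CPM in HCC/NAC livers (SD, n = 2). A fit to IDs with a mean of at least 10 CPM, chosen after seeing the data, gave log2 fold changes of -0.29 for Alb and -0.26 for Cebpa in HCC/NAC against control, both still called. In HCC/NAC livers Alb was 1.35-fold higher than in HCC livers (log2 fold change 0.43 ± 0.017, SE; adjusted p = 4.39e-09, edgeR). The size of this rise rested on the scaling: with library totals alone, which shift the median of all IDs by -0.37 in this comparison, the log2 fold change was 0.06 (adjusted p = 0.00389, edgeR; range over the 16 alternatives 9.05e-206 to 0.00389). Relative to the median of all IDs it was 0.48 under both scalings. A change of scaling moves all IDs nearly alike, so this match does not decide between them. The TMM factors were 0.92 and 0.92 for HCC/NAC, 1.19 and 1.18 for HCC and 0.92 and 0.91 for control libraries.

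Afp was detected in all 6 libraries, with 1010 and 849 counts in HCC/NAC, 7425 and 6990 counts in HCC and 567 and 647 counts in control libraries. In CPM these were 30.4 and 26.1 in HCC/NAC livers, 165 and 174 in HCC livers and 16.4 and 19.5 in control livers. Both HCC libraries stood far above the other 4, and the HCC/NAC libraries lay above the control libraries without overlap. Between HCC/NAC and control, 70.1% of tested IDs did not overlap in either direction. The control replicates differed 1.19-fold and the HCC/NAC replicates 0.859-fold (replicate 2 over replicate 1), the widest replicate ratios of the 4 genes.

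Afp was 9.44-fold higher in HCC than in control livers (95% interval 7.99 to 11.2), at 170 ± 6.8 CPM in HCC livers against 17.98 ± 2.2 CPM in control livers (SD, n = 2 each; log2 fold change 3.24 ± 0.11, SE; adjusted p = 3.46e-10, edgeR). This rise was exceeded by 6.71% of all tested IDs, many of them weakly expressed, and by 1.11% of the IDs with a mean of at least 10 CPM. In HCC/NAC livers Afp was 6.00-fold lower than in HCC livers (95% interval 5.11 to 7.04), at 28.3 ± 3.0 CPM (SD, n = 2; log2 fold change -2.58 ± 0.11, SE; adjusted p = 7.39e-09, edgeR). Only 2.31% of all tested IDs, and 0.160% of those with a mean of at least 10 CPM, showed a deeper fall in that comparison. HCC/NAC livers still held 1.57-fold more Afp transcript than control livers (95% interval 1.33 to 1.85; log2 fold change 0.65 ± 0.11, SE; adjusted p = 0.000371, edgeR). The order of levels was thus HCC, HCC/NAC, control, each step passing the test, and it was the same under all 16 alternatives.

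Hnf4a had 5798 and 5286 counts in HCC/NAC, 11427 and 10140 counts in HCC and 17015 and 16244 counts in control libraries. Scaled, it measured 175 and 163 CPM in HCC/NAC livers, 254 and 253 CPM in HCC livers and 493 and 491 CPM in control livers. The 3 groups were separate, with HCC/NAC lowest and control highest, and 65.9% to 72.4% of tested IDs were also separate, depending on the comparison. In HCC livers Hnf4a, the nuclear receptor of the pair, fell to 253 ± 0.41 CPM, against 492 ± 1.5 CPM in control livers (SD, n = 2 each), 1.94-fold lower with a 95% interval of 1.80 to 2.10 (log2 fold change -0.96 ± 0.051, SE; adjusted p = 2.02e-08, edgeR). The SD of 2 libraries is a poor measure of spread. Estimated with all groups, the coefficient of variation of this gene was 4.65%, a value that the quasi-likelihood test does not itself use.

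Hnf4a was the 1 gene of the 4 that lay further from control with NAC. In HCC/NAC livers it was at 169 ± 8.5 CPM (SD, n = 2), 2.92-fold below control (95% interval 2.70 to 3.15; log2 fold change -1.54 ± 0.052, SE; adjusted p = 3.72e-10, edgeR). Against HCC livers it fell 1.503-fold (95% interval 1.39 to 1.62; log2 fold change -0.59 ± 0.051, SE; adjusted p = 4.85e-06, edgeR), and with library totals alone this log2 fold change was -0.96. In HCC/NAC against control 7.82% of all tested IDs fell further than Hnf4a, and in HCC/NAC against HCC 22.2% did. The gene counts do not separate transcripts of the 2 Hnf4a starts whose windows are given above, so a change of start was not analysed here.

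Cebpa had 5284 and 5271 counts in HCC/NAC, 5052 and 4522 counts in HCC and 7480 and 7602 counts in control libraries. In CPM it measured 159 and 162 in HCC/NAC livers, 112 and 113 in HCC livers and 217 and 230 in control livers. HCC livers were lowest and control livers highest, with no overlap, as for 65.9% to 72.4% of tested IDs depending on the comparison. Cebpa, the leucine zipper factor, fell in HCC livers to 113 ± 0.50 CPM, against 223 ± 9.2 CPM in control livers (SD, n = 2 each), 1.98-fold lower with a 95% interval of 1.81 to 2.17 (log2 fold change -0.99 ± 0.059, SE; adjusted p = 5.73e-08, edgeR).

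In HCC/NAC livers Cebpa averaged 161 ± 2.1 CPM (SD, n = 2), 1.39-fold below control (log2 fold change -0.47 ± 0.058, SE; adjusted p = 3.36e-05, edgeR) and 1.43-fold above HCC livers (log2 fold change 0.51 ± 0.058, SE; adjusted p = 4.33e-05, edgeR). The call against HCC was lost with library totals alone, where the log2 fold change was 0.14 (adjusted p = 0.0742, edgeR; range over the 16 alternatives 5.89e-17 to 0.0742). Relative to the median of all IDs it was 0.56 under both scalings, a match that again follows from scaling moving all IDs nearly alike. In HCC against control, library totals alone gave log2 fold changes of -0.56 for Alb, -0.58 for Hnf4a and -0.61 for Cebpa, all still called, with the median of all IDs shifted by 0.37. Relative to that median they were -0.99, -1.01 and -1.04, the same to the second decimal as under TMM, for the same reason.

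**Figure D2:**
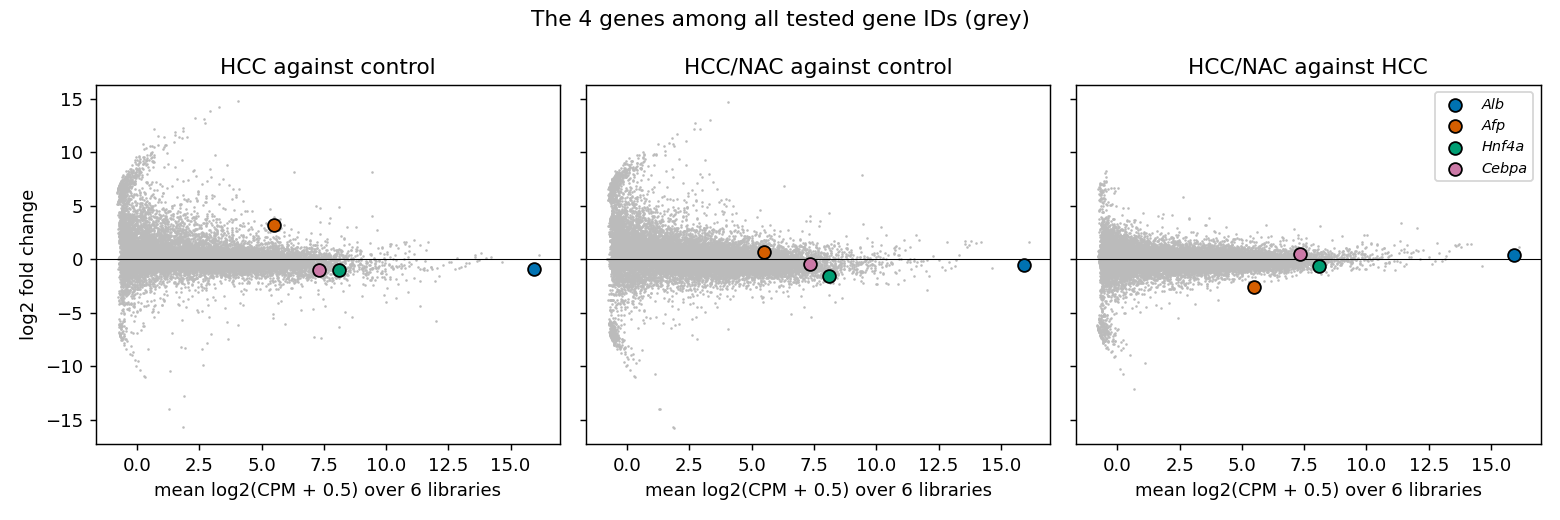
Log2 fold change of every tested gene ID (grey) against its mean log2(CPM + 0.5) over the 6 libraries, with the 4 genes in colour, for HCC against control, HCC/NAC against control and HCC/NAC against HCC. Afp stands at the edge of the IDs of its abundance in HCC against control (3.24) and in HCC/NAC against HCC (-2.58), and Alb lies at the abundant end.

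A ratio of 2 counts of the same library does not depend on how libraries are scaled, and 4 such ratios were compared. They were given no test, because 2 against 2 libraries cannot reach a two-sided exact permutation p below 0.333. Counts of different genes are not per length, so each ratio is read only across libraries.

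The Afp to Alb ratio separated all 3 groups. There were 49.8 and 42.6 Afp counts per 100000 Alb counts in HCC/NAC libraries, 368.5 and 378.1 in HCC libraries and 19.2 and 22.2 in control libraries. The ratio was 18.1-fold higher in HCC than in control livers, 2.23-fold higher in HCC/NAC than in control livers and 8.11-fold lower in HCC/NAC than in HCC livers. It combined the rise of Afp and the fall of Alb in HCC livers, and both replicates of each group lay close together relative to these steps.

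The ratio of Hnf4a to Alb distinguished HCC/NAC livers from the other 2 groups. Per 1000 Alb counts there were 2.86 and 2.65 Hnf4a counts in HCC/NAC libraries, 5.67 and 5.48 in HCC libraries and 5.76 and 5.56 in control libraries. HCC and control libraries overlapped, with a log2 difference of -0.02 beside a replicate SD of 0.034 in HCC and 0.035 in control livers. With NAC the ratio was 2.03-fold lower than in HCC livers and 2.06-fold lower than in control livers.

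Cebpa and Alb kept nearly the same ratio in all 6 libraries. Per 1000 Alb counts there were 2.61 and 2.64 Cebpa counts in HCC/NAC libraries, 2.51 and 2.45 in HCC libraries and 2.53 and 2.60 in control libraries. The log2 difference was -0.05 for HCC against control, 0.03 for HCC/NAC against control and 0.08 for HCC/NAC against HCC, and the replicate SDs were 0.014 in HCC/NAC, 0.025 in HCC and 0.029 in control livers. HCC/NAC libraries lay above both other groups in this ratio and HCC libraries below both, with group means a few percent apart. HCC/NAC replicate 1 (2.607) was barely above control replicate 2 (2.603). The log2 step of 0.03 between these groups was about the size of the control SD.

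Between the 2 transcription factors the balance differed with NAC. In each library this ratio equals Cebpa to Alb divided by Hnf4a to Alb, so it restates those ratios and is no separate result. Cebpa counts were 91.1% and 99.7% of Hnf4a counts in HCC/NAC libraries, 44.2% and 44.6% in HCC libraries and 44.0% and 46.8% in control libraries. HCC libraries lay within the range of the control libraries, whereas the ratio in HCC/NAC livers was 2.15-fold that of HCC livers and 2.10-fold that of control livers.

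**Figure D3:**
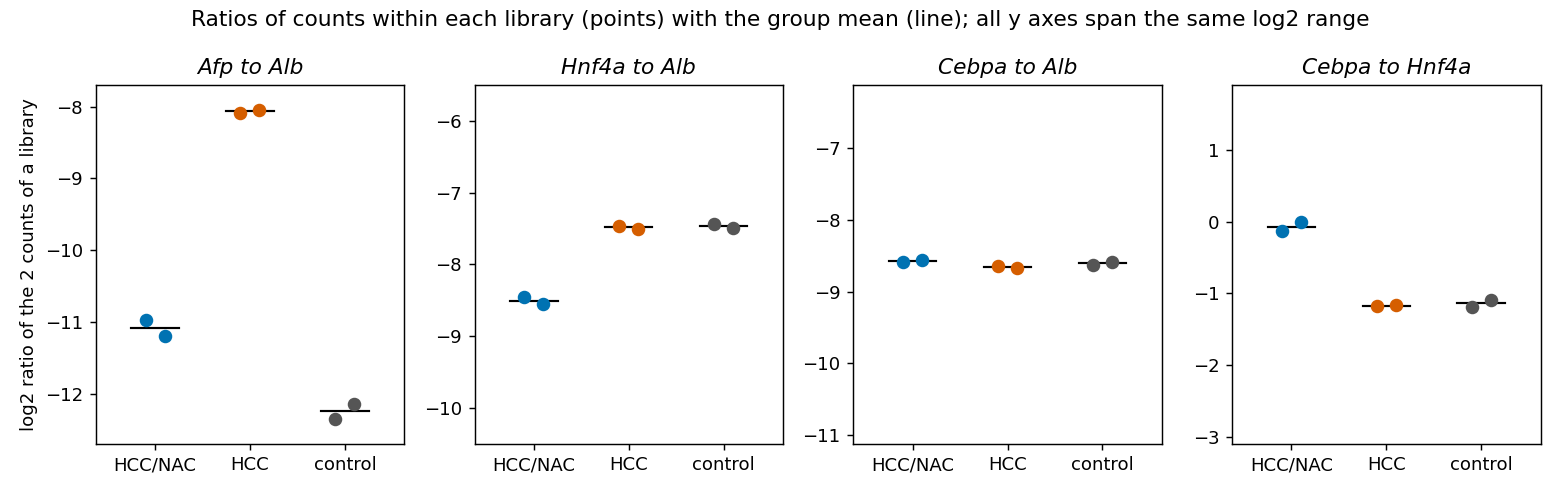
Log2 ratio of 2 counts in each library for Afp to Alb, Hnf4a to Alb, Cebpa to Alb and Cebpa to Hnf4a, with points for libraries and lines for group means; all 4 y axes span the same log2 range. The ratio of Cebpa to Alb is nearly flat, Hnf4a to Alb and Cebpa to Hnf4a separate HCC/NAC from the other groups, and Afp to Alb separates all 3.

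Likeness of pattern was measured as the root mean square difference between profiles of log2(CPM + 0.5) over the 6 libraries, each centred on its own mean, among 13289 other IDs with a mean of at least 1 CPM. By this measure Cebpa was the second nearest ID to Alb, at 0.037 on the log2 scale. The nearest was ENSRNOG00000053244, at 0.033, with means of 515, 384 and 703 CPM in HCC/NAC, HCC and control livers. The nearest ID to Cebpa was ENSRNOG00000043233, at 0.032, with means of 60.6, 42.5 and 82.5 CPM in the same order of groups. Within 0.2 lay 528 IDs for Alb, 414 for Cebpa and 322 for Hnf4a, so such profiles were common.

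For Afp, 0 IDs lay within 0.2. The limit is a fixed distance in log2 units, so it is stricter for the large changes of Afp than for the smaller ones of the other 3 genes. The nearest ID to Afp, ENSRNOG00000074356, lay at 0.22 and was far less abundant, at 0.32, 3.65 and 0.045 CPM in HCC/NAC, HCC and control livers. Its fitted log2 fold change of HCC against control was 6.25, beside 3.24 for Afp. At such low levels the 0.5 added to CPM shrinks differences, so the 2 genes did not change by a like amount. Hnf4a lay at 0.49 from Alb and at 0.51 from Cebpa, and Afp at 1.70 to 1.77 from the other 3 genes. The libraries share depth and scaling within this measure, the symbols of the named IDs were not analysed here, and the distances are descriptions without a test.

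**Figure D4:**
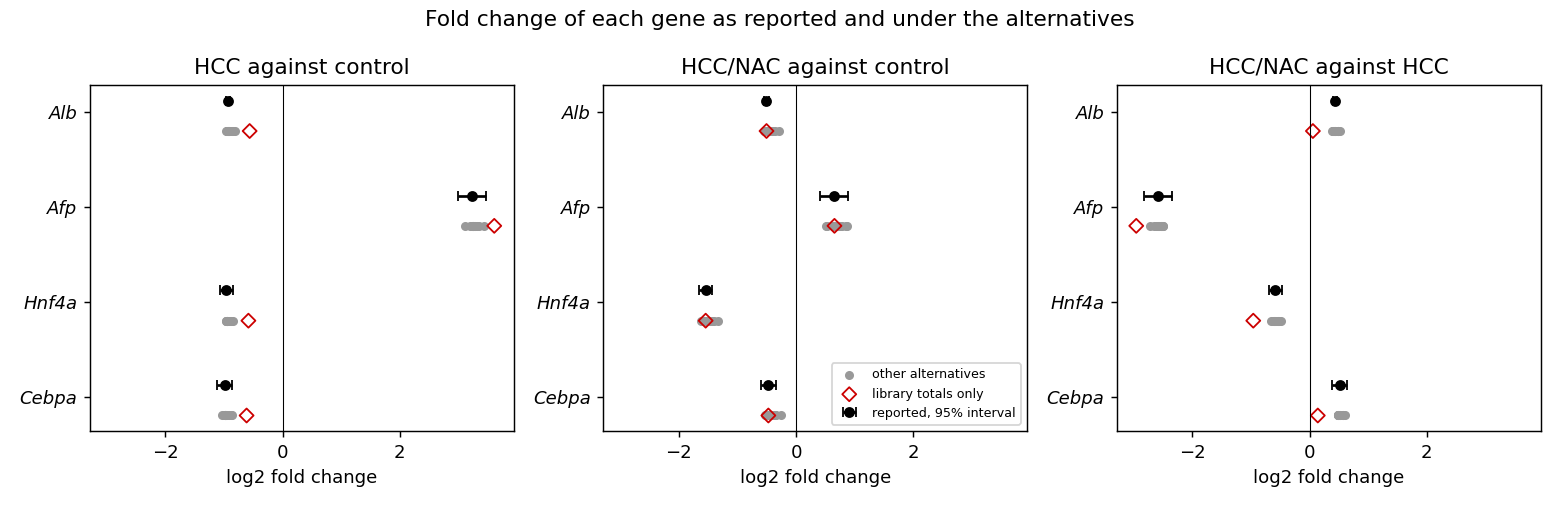
Log2 fold change of the 4 genes in each comparison, as reported (black, with the 95% interval) and under 16 alternatives (grey points, with scaling by library totals alone as red diamonds). No value crosses 0, and library totals alone move the values that involve HCC by about the shift of the median of all IDs, 0.37 in size.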

How the data were processed

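Poly(A) RNA libraries of rat liver, 2 per group, were counted by the authors. The submitters' processing notes name FastQC, STAR, featureCounts and edgeR, and per the file headers each deposited column holds the counts of 1 STAR alignment. These are raw counts per Ensembl gene ID. For genome build, annotation, strand and read-pair settings, nothing is stated in the labels or headers. Molecular identifiers are not mentioned. Binomial intervals of shares cover counting error only, whereas intervals of fold changes come from the fitted spread between libraries.

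From these counts, edgeR 4.0.16 (R 4.3.3) was run with filterByExpr, TMM scaling and 1 quasi-likelihood model of all 6 libraries with a mean per group (3 residual degrees of freedom). The fit was made on the whole table and was also run on simulated counts. In these only a small share of IDs changed, up or down at random, so the scaling was not tested. The outcome is not given here. A gene was called at an adjusted p under 0.05. CPM values use TMM-scaled library sizes, and standard errors derive from the F statistic. Alternatives used RLE, upper-quartile and total scaling, DESeq2 1.42.0, limma 3.58.1 (voom), other filters, a replicate block, the compared groups only and each library left out. Members, lists and tests were chosen with earlier results of these data known. Named IDs are the 4 genes and the nearest profiles, at most 2 that rose and 2 that fell in HCC. Symbol lists of other hepatocyte, fetal and cell type genes could not be applied, because 0 IDs carried a symbol, and the share of other cell types was not analysed here.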

Additional observations from a re-analysis of the deposited data

How the results depend on the processing

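Over 16 alternatives for each of the 12 fold changes, no direction changed and 191 of 192 values kept their side of the threshold. The exception was Cebpa in HCC/NAC against HCC with library totals only (log2 fold change 0.14, adjusted p = 0.0742, edgeR, in a range of 5.89e-17 to 0.0742). All alternatives reused the same libraries, and some left out only a library of the group not compared. The 192 values are therefore not independent checks. The count of called IDs in HCC/NAC against HCC was 3093 without HCC replicate 1 and 4686 with all libraries, and lay between 3093 and 5075 over the fits that left out 1 library. Upper-quartile scaling shifted the median of all IDs by 0.14 in HCC/NAC against control. The splits of higher and lower IDs with library totals were 5398 and 1536 in HCC against control, where TMM gave 2876 and 3007, and 783 and 5811 in HCC/NAC against HCC, where TMM gave 1899 and 2787. Replicate numbers in the titles did not pair libraries by any label, their deviations correlated at 0.015 at most between groups, and with the replicate block all 12 calls held (Cebpa in HCC/NAC against HCC 0.51), beside 5982, 7650 and 4861 called IDs in HCC against control, HCC/NAC against control and HCC/NAC against HCC. The 4 ratios were also taken with 1 library left out, but a mean of 2 libraries then always moves by less than their SD. That comparison could not have come out otherwise and says nothing of stability. For Afp to Alb in HCC against control, the log2 difference was 4.18 with all libraries and ran from 4.07 to 4.28. With 2 pooled libraries per group, variation between animals was not measured.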
